A study of Homo sapiens with 16 samples.

Results

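The comparison described here sets ME180 cells treated with 10 µM all-trans retinoic acid (ATRA) for 3 h against ME180 cells given the DMSO vehicle, with 4 arrays in each group, which together are 8 of the 16 arrays of a time course that also holds 1 h and 6 h of ATRA. ME180 is a human line of epidermoid (squamous) carcinoma of the cervix, taken from an omental metastasis and grown in IMDM with fetal bovine serum, and total RNA was labelled with biotin and hybridised to Illumina bead arrays. The groups were taken from the labelled treatment and time. The DMSO arrays carry no treatment time, so ATRA and time in culture are not matched, and the line is a single cancer line, so nothing here speaks of other squamous cells. Nothing in the labels says that replicates are separate cultures, so every p-value measures the spread between these arrays, which may be technical. In bulk RNA, fewer cells of a type and less RNA per cell cannot be told apart.

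ATRA is the active metabolite of vitamin A. It binds the retinoic acid receptors RARA, RARB and RARG, which pair with retinoid X receptors such as RXRA on DNA elements made of repeated half-sites, and turns on its own breakdown through the CYP26 hydroxylases. In squamous epithelia retinoids are known to hold back keratinisation and to change the mix of differentiation genes. Genes that respond within hours can be direct receptor targets or genes of signalling pathways that respond to other early products, and an array of steady-state RNA does not separate these.

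Values are log2 intensities, so a difference of 1 is a 2-fold change, and they were already on a common distribution as deposited. The rows of the 4 arrays numbered replicate 1 stood 1 row too low from row 10570 of 47230 onward and were moved up. The replicate 1 arrays also differed in level from the rest at 52.9% of the genes tested, and this array set was a block in the fit. Differences were tested with limma over all 16 arrays, in which the 1 h and 6 h arrays contribute to the estimate of spread. The 6 h arrays did not form a tight group: at CYP26A1, a standard ATRA target, they stood at 12.95, 4.53, 13.13 and 5.45 in replicates 1 to 4, so that replicates 2 and 4 lay below every DMSO array. The overall count, and each list count that moves by over 1.5 times, is therefore also given without the 6 h arrays. The labelled tissue was checked on its markers: 14 of the 15 squamous epithelial markers with a named probe, KRT5, KRT14 and KRT13 among them, reached a log2 intensity of 6 in all 16 arrays, and SOX2 was the exception.

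Of 12467 genes and unnamed probes tested (9651 with a symbol), 384 passed an adjusted p of 0.05 in limma, which is 3.08% of those tested. Of these, 234 were higher at 3 h (1.88%) and 150 were lower (1.20%). The list counts below are to be read against these shares. The rises were larger than the falls: 140 genes rose by at least 2-fold and 38 by at least 4-fold, against 71 and 9 that fell by as much, and the median difference was 1.11 among the genes that rose, -0.93 among those that fell and -0.04 over all genes. The direction was the same in the replicate 1 pair of arrays and in the mean of replicates 2 to 4 for 384 of the 384. The 384 were chosen on these same arrays, which all but fixes that agreement, so it is no replication. With the 6 h arrays left out of the fit 571 passed, 371 of them among the 384, and with only the 8 arrays compared 380 passed (3.05%), sharing 283. Without the replicate 1 arrays the count was 94 (0.754%), and with no array set block it was 65 (0.521%). Leaving out single arrays moved the count between 116 (without DMSO replicate 2) and 498 (without 6 h replicate 4). It was 148 without DMSO replicate 3, 197 without DMSO replicate 1, 145 without 3 h replicate 2, 211 without 3 h replicate 4 and 231 without 3 h replicate 1.

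**Figure D1:**
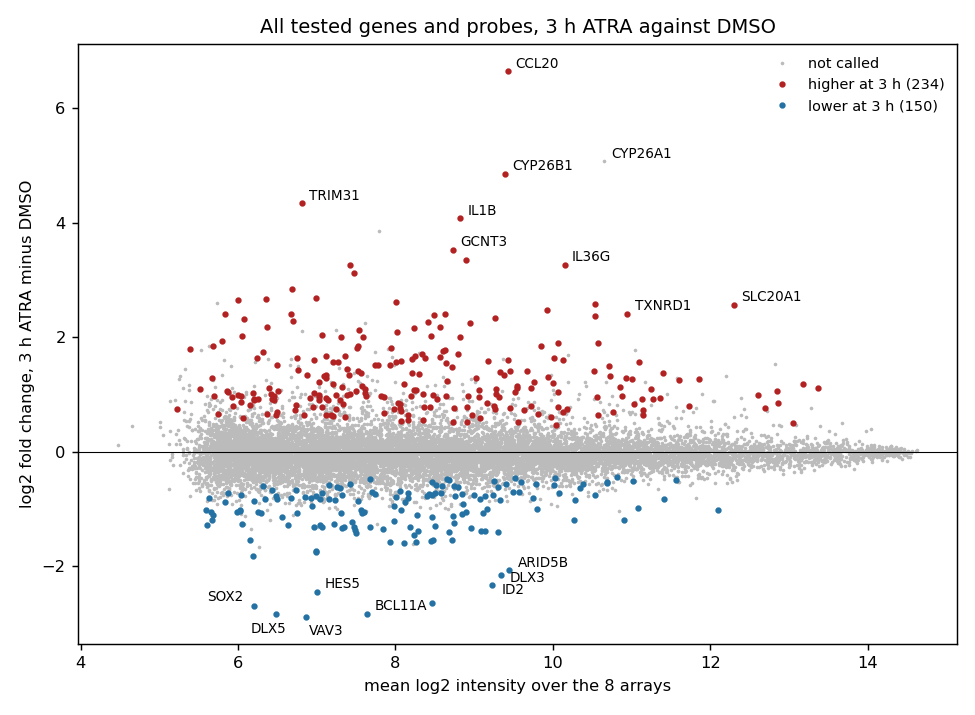
Log2 fold change of 3 h ATRA over DMSO (vertical axis) against the mean log2 intensity over the 8 arrays (horizontal axis) for 12467 genes and probes. Red points are the 234 genes higher and blue points the 150 genes lower at an adjusted p under 0.05, grey points did not pass, and CCL20 and CYP26B1 stand highest among those that passed while the grey CYP26A1 point, at 5.08, did not pass.

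The genes of retinoid breakdown and storage were led by the CYP26 hydroxylases, which inactivate retinoic acid. CYP26B1 stood at 6.22, 6.96, 6.88 and 7.80 in the 4 DMSO arrays and at 11.11, 12.74, 11 and 12.41 in the 4 arrays at 3 h. All 4 treated arrays lay more than 3 units above the highest DMSO array, and the rise was 28.9-fold (4.85 ± 0.94 SE on the log2 scale, limma adjusted p = 0.0128). CYP26A1 stood at 7.26, 8.58, 8.83 and 7.79 in DMSO and at 12.99, 14.02, 12.18 and 13.58 at 3 h, the groups far apart and the mean difference 5.08 ± 1.65 SE. CYP26A1 did not pass in the 16-array fit (adjusted p = 0.122), to whose spread the divided 6 h arrays contribute, and it passed with the 6 h arrays left out (adjusted p = 0.00596) and with the 8 arrays alone (adjusted p = 0.000771). Both further CYP26A1 probes passed in a 16-array fit on all probes, at 5.36 (adjusted p = 0.0216) and 4.91 (adjusted p = 0.0366).

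ALDH1A3, which oxidises retinal to retinoic acid, stood at 11.11, 11.99, 12.34 and 13.00 in DMSO and at 12.05, 13.64, 13.18 and 13.56 at 3 h. The groups overlapped, while each 3 h array lay above the DMSO array of the same number, and the difference was 1.00 ± 0.21 SE (limma adjusted p = 0.0185). DHRS3, which reduces retinal to retinol, stood at 11.48, 11.39, 11.19 and 11.14 in DMSO and at 11.95, 11.77, 12.08 and 12.22 at 3 h. Its groups did not overlap, yet the difference of 0.71 missed the threshold (adjusted p = 0.631) and passed only in the 8-array fit (adjusted p = 0.0396) among the alternatives without a left-out array. CRABP2, the carrier of retinoic acid to its receptors, was bright in both groups at 13.42 ± 0.10 and 13.74 ± 0.24 (SD, n = 4 each), with a difference of 0.32 (adjusted p = 0.49). In all, 2 of 14 tested members of the retinoid metabolism list rose and none fell, with a median of 0.22 against -0.04 over all genes. The calls on CYP26B1 and ALDH1A3 ended without the replicate 1 arrays (adjusted p = 0.0678 and 0.0958). With 1 array left out, that on CYP26B1 ended without 3 h replicate 2 (0.0504). That on ALDH1A3 ended in 5 such fits, at worst without DMSO replicate 2 (0.0802).

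Among the receptors, RARA stood at 7.75, 8.15, 8.21 and 8.47 in DMSO and at 7.29, 8.73, 8.32 and 8.70 at 3 h, with overlapping groups and a difference of 0.11 (limma adjusted p = 0.908). RARG lay at 5.76 ± 0.60 in DMSO and 5.81 ± 0.63 at 3 h (SD, n = 4 each, adjusted p = 0.948). Both RARG means were under 6, so the lack of a difference there says little. RARB reached 6 in 1 of the 16 arrays and was below the filter. RXRA, the partner of these receptors, stood at 10.71, 12.27, 12.35 and 12 in DMSO and at 10.07, 11.39, 11.43 and 11.11 at 3 h. The replicate 1 arrays were the lowest of each group, which made the groups overlap. Each 3 h array lay below the DMSO array of the same number. RXRA fell by 0.83 on the log2 scale (SE 0.17, adjusted p = 0.0167), passing without the replicate 1 arrays too (adjusted p = 0.0328) but not without DMSO replicate 2 (adjusted p = 0.0625). PPARD, a lipid-binding receptor that also pairs with RXR, rose by 0.61 (adjusted p = 0.0287).

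NRIP1 (RIP140), a corepressor that binds liganded nuclear receptors, had DMSO values of 6.43, 6.98, 6.78 and 6.60 and 3 h values of 9.57, 10.34, 9.12 and 8.25. Every treated array lay above every DMSO array, and NRIP1 rose 6.14-fold (2.62 ± 0.62 SE, limma adjusted p = 0.0329). Of 12 receptors and coregulators tested, 2 rose and 1 fell, with a median of -0.11. The call on NRIP1 ended without 3 h replicate 2 (adjusted p = 0.116), and that on PPARD without 3 h replicate 2 (adjusted p = 0.0965) and with the 4 replicate numbers as a block (adjusted p = 0.0508).

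Of 17 genes known as ATRA targets in other cells, 3 rose (CYP26B1 and NRIP1 again, and GPRC5A), 1 fell and the median was 0.58, and 7 of the 17 had all 4 treated arrays above all DMSO arrays, against 3.02% of all genes. GPRC5A, an orphan receptor first described as a retinoic acid-induced gene, stood at 9.76, 8.16, 8.08 and 8.78 in DMSO and at 11.23, 11.01, 10.80 and 11.65 at 3 h. The groups were a full unit apart and the rise was 5.58-fold (2.48 ± 0.36 SE, adjusted p = 0.00287). HOXB5, a homeobox factor, fell by 0.87 (adjusted p = 0.0128), a call that ended without DMSO replicate 2 (0.0584). ELF3, an epithelial ETS factor chosen here after its values were seen, stood at 9.69, 9.32, 9.30 and 9.10 in DMSO and at 10.78, 10.88, 11.10 and 11.40 at 3 h. Its groups did not overlap, and like CYP26A1 it missed the threshold with 16 arrays (adjusted p = 0.114) and passed with 8 (adjusted p = 0.00303). In the fit on the 8 arrays alone, and in the fit without the 6 h arrays, 9 of these 17 genes passed in place of 4.

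Promoters were searched for the direct repeat with 5 bases between half-sites, the arrangement best known for retinoic acid receptors, because a match there is the sequence feature closest to this treatment. The half-sites searched were AGGTCA, which is the common form, the variant AGTTCA, the variant GGGTCA and the variant GGTTCA, without overlap between the 2 half-sites, on both strands of the 300 bases from 250 before to 50 after each RefSeq start site (GRCh38.p14). The repeat was found in 29 of 27305 genes (0.106%) and in 7 of 7924 tested genes (0.0883%). It was found in 2 of the 166 genes that rose and had a promoter in the table (1.20%), and in 0 of the 106 that fell. Those 2 genes were TRIM31 and CFLAR, and the sites below add CYP26A1 and RARB. Each is written in the orientation of the motif, with the half-sites in capitals.
CYP26A1, chr10:93073803-93073819, reverse strand: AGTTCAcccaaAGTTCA
TRIM31, chr6:30113274-30113290, reverse to the gene: AGGTCAcagccAGTTCA
CFLAR, chr2:201140273-201140289, reverse strand: GGTTCAgtccaAGGTCA
RARB, chr3:25428210-25428226, forward strand: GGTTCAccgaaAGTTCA
The sites lie at -90 to -74 (CYP26A1), -200 to -184 (TRIM31), -2 to 15 (CFLAR) and -53 to -37 (RARB) from the start site. A match is a description of the letters and no measurement of binding.

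The whole promoter window of CYP26A1 and that of TRIM31, the tested genes with a match and the largest differences, are shown from 5′ to 3′ in the direction of the gene, with the repeat in capitals as it reads on that strand. They lie at chr10:93073643-93073942 (plus strand) and chr6:30113041-30113340 (minus strand).
CYP26A1: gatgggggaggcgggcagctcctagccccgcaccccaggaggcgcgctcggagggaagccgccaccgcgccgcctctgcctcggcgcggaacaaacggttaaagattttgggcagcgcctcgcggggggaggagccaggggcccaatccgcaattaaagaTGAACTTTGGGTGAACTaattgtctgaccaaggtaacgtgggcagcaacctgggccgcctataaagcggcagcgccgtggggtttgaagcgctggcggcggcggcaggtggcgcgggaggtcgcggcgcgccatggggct
TRIM31: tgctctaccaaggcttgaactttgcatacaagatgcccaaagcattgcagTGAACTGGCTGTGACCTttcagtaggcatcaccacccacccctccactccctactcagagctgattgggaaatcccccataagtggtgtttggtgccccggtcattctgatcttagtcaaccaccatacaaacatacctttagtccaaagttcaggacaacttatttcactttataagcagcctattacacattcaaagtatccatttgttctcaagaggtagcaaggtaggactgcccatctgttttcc

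TRIM31, a ubiquitin ligase of the tripartite motif family, was among the 15 largest rises. It stood at 4.75, 4.55, 4.59 and 4.67 in DMSO, where all 4 arrays were under 6, and at 8.71, 10.60, 6.75 and 9.87 at 3 h. Treated replicate 3 was by far the lowest of its group and still above every DMSO array. Counting DMSO at 6, TRIM31 was at least 7.89-fold higher (limma adjusted p = 0.0309), a call that ended without 3 h replicate 2 (adjusted p = 0.109) and with the 4 replicate numbers as a block (adjusted p = 0.0511). CFLAR, the inhibitor of caspase-8 at death receptors, stood at 6.38, 6.68, 6.45 and 6.60 in DMSO and at 7.28, 7.75, 7.07 and 7.98 at 3 h. The groups did not overlap, and the rise of 1.00 (adjusted p = 0.0425) ended without 3 h replicate 4 (adjusted p = 0.124) and with the replicate numbers as a block (adjusted p = 0.0505).

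Immediate-early and AP-1 genes, which answer mitogens and stress within minutes to hours, were higher in part. Of 26 tested 6 rose (against 1.88% of all genes) and none fell (median 0.38). FOSL1 (Fra-1), a Fos-family subunit of AP-1, stood at 6.21, 5.33, 5.49 and 6.58 in DMSO and at 8.17, 9.95, 8.11 and 9.91 at 3 h. The 4 treated arrays, 2 of them near 8 and 2 near 10, all exceeded DMSO, and the rise was 8.76-fold (3.13 ± 0.53 SE, limma adjusted p = 0.00665). MAFF, a small Maf factor, was under 6 in every DMSO array and between 7.16 and 8.66 at 3 h, at least 3.68-fold higher (adjusted p = 0.0106). CCN2, a secreted matrix-associated factor, rose 4.12-fold (from 6.04 ± 0.45 to 8.09 ± 0.43, SD, n = 4 each, adjusted p = 0.00256). IER3, ZFP36, which destabilises cytokine messages, and MYC rose by 1.27, 1.20 and 0.80 (adjusted p = 0.0347, 0.0195 and 0.0191). FOSB, picked after its values were seen, stood at 8.31 ± 1.08 against 6.19 ± 0.21 and missed the threshold (adjusted p = 0.0758).

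Calls on FOSL1 and CCN2 held whichever single array was left out. The others ended at worst without DMSO replicate 2 for MAFF (adjusted p = 0.052), DMSO replicate 3 for IER3 (0.11) and ZFP36 (0.0624) and DMSO replicate 1 for MYC (0.0742), and IER3 also with the replicate numbers as a block (0.0556). The AP-1 motif (TGAGTCA or TGACTCA) stood in the promoter window of 18 of 166 genes that rose (10.8%) and 7 of 106 that fell (6.60%), against 4.73% of tested genes. The CRE (TGACGTCA) stood in 4.82% of the genes that rose and 1.89% of those that fell, against 3.82% of tested genes, and the kappaB consensus in 22.9% and 26.4%, against 17.3%. These shares are given as a description.

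Inhibitors of MAP kinase signalling were the list with the most even shift, with a median of 1.13. Of 12 tested members 12 were higher on average (against 43.4% of all genes) and 6 passed as higher (against 1.88%). DUSP1, the phosphatase that inactivates p38 and JNK, stood at 9.86, 8.76, 8.67 and 9.69 in DMSO and at 11.88, 12.59, 10.58 and 12.24 at 3 h. Treated replicate 3 was lowest and still above DMSO, and the rise was 5.98-fold (2.58 ± 0.39 SE, limma adjusted p = 0.00404). DUSP6 and DUSP5, phosphatases of ERK, rose by 1.71 and 1.42 (adjusted p = 0.0167 and 0.0341). SPRED1, an inhibitor of Ras signalling, PHLDA1 and DUSP16, a phosphatase of JNK, rose by 1.41, 1.27 and 0.98 (adjusted p = 0.0297, 0.0141 and 0.0236). The call on DUSP1 alone held through every left-out array, while those on DUSP5, DUSP6, DUSP16 and PHLDA1 ended at worst without DMSO replicate 2 (adjusted p from 0.0589 to 0.13) and that on SPRED1 without DMSO replicate 1 (0.111). Without the replicate 1 arrays 1 of the 12 passed.

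Of 6 tested ligands and receptors of the EGF family, 2 ligands rose and 1 receptor fell, where 3.08% of all genes passed. HBEGF, a membrane-shed ligand of EGFR, stood at 6.43, 7.28, 7.34 and 8.14 in DMSO and at 8.75, 10.37, 9.44 and 10.16 at 3 h. Within each group the replicate 1 array was lowest, the groups stayed apart, and HBEGF rose 5.21-fold (2.38 ± 0.29 SE, limma adjusted p = 0.00145). TGFA, another EGFR ligand, rose 2.03-fold from 7.10 ± 0.16 to 8.12 ± 0.27 (SD, n = 4 each, adjusted p = 0.00665). ERBB3, a receptor that signals by pairing with other ERBB members, fell by 0.81 (adjusted p = 0.0422), a call lost without DMSO replicate 2 (0.155) and in the 8-array fit (0.0563). The calls on HBEGF and TGFA held with every single array left out.

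Secreted inflammatory signals held the largest rise of the comparison. CCL20, the chemokine that draws CCR6-bearing lymphocytes and dendritic cells, stood at 6.18, 5.19, 5.43 and 7.63 in DMSO and at 12.70, 13.56, 11.32 and 13.44 at 3 h. The spread within each group was over 2 units and the gap between the groups larger still, at 6.65 ± 0.83 SE on the log2 scale (limma adjusted p = 0.00163). CCL20 was the one chemokine of 7 tested to pass. CXCL8 (IL-8), singled out after its values were seen, stood at 6.37, 5.02, 4.96 and 7.12 in DMSO and at 9.65, 11.86, 6.66 and 10.73 at 3 h. Treated replicate 3 lay below DMSO replicate 4, so the groups overlapped, and the difference of 3.86 ± 1.11 SE missed the threshold (adjusted p = 0.0796, and 0.0876 with 8 arrays).

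Of 7 cytokines of the IL-1, IL-6 and TNF families tested, 4 rose (against 1.88% of all genes), none fell and the median was 0.99. Those 4 belong to the IL-1 family. IL1B, the secreted inflammatory cytokine, stood at 6.67, 6.57, 6.39 and 7.51 in DMSO and at 11.21, 11.80, 8.93 and 11.52 at 3 h. Treated replicate 3 again lay nearest to DMSO, with no overlap, and IL1B rose 16.9-fold (4.08 ± 0.80 SE, limma adjusted p = 0.0138). IL36G, an epithelial IL-1 family cytokine, stood at 8.59, 8.36, 8.46 and 8.68 in DMSO and at 11.44, 12.83, 10.90 and 11.97 at 3 h. Its DMSO arrays lay close together, with every treated array far above them, and it rose 9.6-fold (3.26 ± 0.37 SE, adjusted p = 0.00137). IL1A, an alarmin held in epithelial cells, rose 2.88-fold (adjusted p = 0.00338), and IL36RN, the antagonist of the IL-36 receptor, rose 1.99-fold (adjusted p = 0.0253). Calls on CCL20, IL36G and IL1A held through every single left-out array. Those on IL1B and IL36RN ended at worst without 3 h replicate 2 (adjusted p = 0.0545) and DMSO replicate 2 (0.1).

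RELB, the non-canonical NF-kappaB subunit, was the one of 17 NF-kappaB subunits and feedback inhibitors to pass, against a background of 3.08%. It stood at 4.95, 4.98, 4.96 and 6.23 in DMSO and at 6.00, 7.95, 7.13 and 8.79 at 3 h. DMSO replicate 4 lay above treated replicate 1, so the groups overlapped, and 3 of the 4 DMSO arrays were under 6. The measured means differed 4.54-fold (2.18 ± 0.56 SE, limma adjusted p = 0.0477, and 0.16 without DMSO replicate 2). With the 6 h arrays left out 2 of the 17 passed, the second being BCL3, a nuclear IkappaB protein (1.05, adjusted p = 0.0408), and with the 8 arrays alone 3 did. Of 10 genes of prostaglandin synthesis and response 0 passed in limma and 3 had an unadjusted p under 0.05. The smallest p there belonged to the prostaglandin receptor PTGER4 (0.65, adjusted p = 0.289). In the interferon list 2 of 31 rose (6.45%, against 1.88% of all genes). They were OAS1, a double-stranded RNA sensor, up by 2.27 (adjusted p = 0.0365), and GBP1, up by 0.74 (adjusted p = 0.0463). Both calls ended with the replicate numbers as a block (0.0598 and 0.0593), without DMSO replicate 1 for OAS1 (0.128) and without DMSO replicate 2 for GBP1 (0.16).

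Further genes among the 15 largest rises carry other roles. F3 (tissue factor), the trigger of blood coagulation, stood at 8.56, 6.07, 5.93 and 8.32 in DMSO and at 10.91, 10.22, 10.25 and 10.89 at 3 h. DMSO replicates 1 and 4 were over 2 units above the others, all 4 treated arrays exceeded them, and the rise was 10.2-fold (3.34 ± 0.49 SE, limma adjusted p = 0.003). GCNT3, which branches mucin-type glycans, stood at 8.88, 5.96, 5.82 and 7.24 in DMSO and at 10.91, 10.75, 9.47 and 10.87 at 3 h, higher in each treated array than in any DMSO array (11.5-fold, adjusted p = 0.00708). LIPG, endothelial lipase, went from 5.80 ± 1.00 to 9.06 ± 0.79 (9.55-fold, SD, n = 4 each, adjusted p = 0.00763).

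SLC20A1, a sodium-phosphate cotransporter, was bright before treatment, at 10.46, 11.09, 11.17 and 11.34, and reached 13.40, 13.92, 13.37 and 13.67 at 3 h. Every treated array lay above every DMSO array, and the rise was 5.95-fold (limma adjusted p = 0.00258). TXNRD1, thioredoxin reductase, rose 5.31-fold from 9.74 ± 0.61 to 12.15 ± 0.36 (SD, n = 4 each, adjusted p = 0.00137). It was the one of 22 NRF2 and antioxidant genes to pass (4.55%, against 3.08% of all genes). TINAGL1, a matrix protein, rose 5.33-fold (adjusted p = 0.00708). The calls on F3, GCNT3, LIPG, SLC20A1, TXNRD1 and TINAGL1 held with every single array left out.

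**Figure D2:**
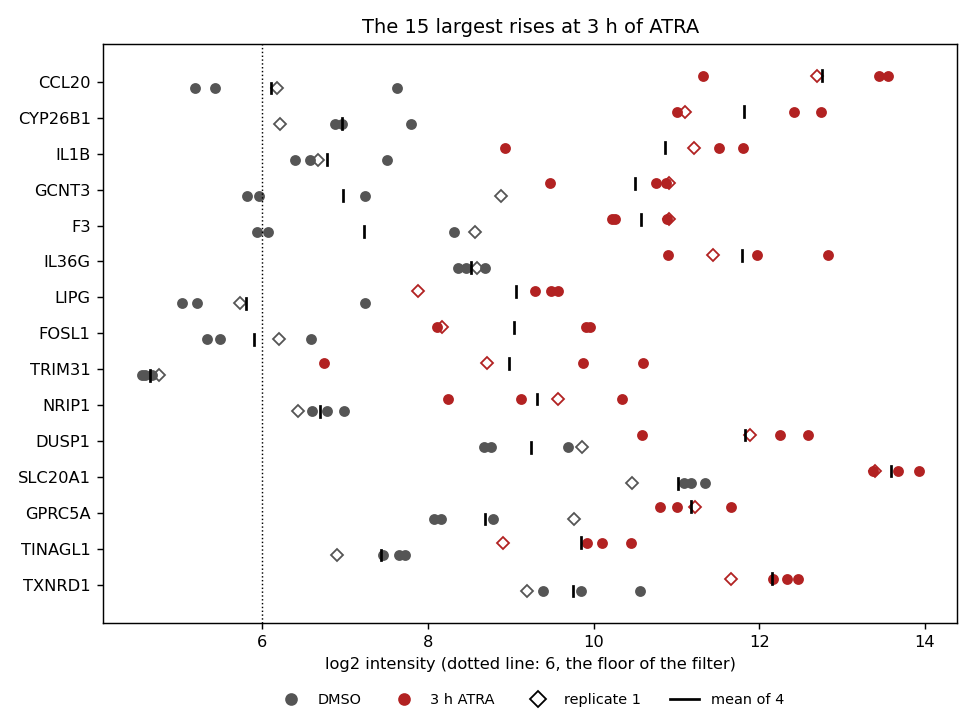
Log2 intensity (horizontal axis) of the 15 named genes with the largest rises, 1 row per gene, in the 4 DMSO arrays (grey) and the 4 arrays at 3 h (red), with replicate 1 as open diamonds and group means as bars. In every row the red points lie to the right of the grey ones, from CCL20 with means of 6.11 and 12.75 to TXNRD1 with means of 9.74 and 12.15, and TRIM31 in DMSO lies left of the dotted line at 6.

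Some genes of the cell surface and matrix passed as higher, where 1.88% of all genes did. SDC4, a heparan sulfate proteoglycan of adhesion sites, stood at 9.26, 9.61, 9.56 and 10.04 in DMSO and at 10.32, 11.87, 11.47 and 12.43 at 3 h, with no overlap and a 3.74-fold rise (limma adjusted p = 0.00258). ITGA2, the collagen-binding integrin subunit, rose 2.44-fold (adjusted p = 0.0178), and these were 2 of 20 hemidesmosome, integrin and matrix genes tested. CEACAM1, an adhesion molecule, rose 4.52-fold from 7.48 ± 0.31 to 9.65 ± 0.87 (SD, n = 4 each, adjusted p = 0.00507) and was the one of 15 junction, adhesion and mucin genes to pass. WWTR1 (TAZ), a coactivator of TEAD factors, rose 3.03-fold (adjusted p = 0.00788), which with CCN2 and F3 made 3 of 14 YAP/TEAD and SRF target genes higher (median 0.49). F3 and TIMP3, an inhibitor of metalloproteinases that rose by 1.02 (adjusted p = 0.0413), were 2 of 14 coagulation and protease genes. The calls on SDC4, CEACAM1 and WWTR1 held through every left-out array, whereas those on ITGA2 and TIMP3 ended without DMSO replicate 1 (0.0664) and DMSO replicate 2 (0.148), and TIMP3 also with the replicate numbers as a block (0.0666).

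The falls were led by transcription factors and signalling genes. SOX2, a factor of stem cells and squamous progenitors, had the smallest adjusted p among the named genes (0.000104). It stood at 7.10, 7.64, 8.02 and 7.48 in DMSO and at 4.86, 4.93, 5.07 and 4.58 at 3 h. All treated arrays were under 6, and against 6 SOX2 was at least 2.94-fold lower, with a further probe also lower (-2.15, limma adjusted p = 0.00168). OVOL2, a zinc-finger factor of epithelial identity, stood at 9.68, 10.01, 10.06 and 9.59 in DMSO and at 8.29, 8.0, 9.28 and 8.23 at 3 h, with no overlap, and fell 2.61-fold (adjusted p = 0.00626). SNAI2 (Slug), a repressor of E-cadherin that also marks basal keratinocytes, fell by 1.07 (adjusted p = 0.021), with groups that overlapped. These were 3 of 18 squamous progenitor and epithelial factors, none of which rose (median -0.28). SOX2 and OVOL2 passed with every single array left out, and SNAI2 did not without DMSO replicate 2 (0.0838).

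The homeobox list held the largest number of falls, 6 of 17 tested against a background of 1.20%, with no rise and a median of -0.53. DLX5, a distal-less factor, stood at 7.19, 8.64, 8.35 and 7.44 in DMSO and at 4.67, 4.65, 5.62 and 5.33 at 3 h. All treated arrays were under 6 and every DMSO array above 7, so DLX5 was at least 3.75-fold lower (limma adjusted p = 0.00137). DLX3, a regulator of epidermal differentiation, stood at 9.65, 10.91, 11.07 and 10.02 in DMSO and at 7.54, 7.89, 9.27 and 8.37 at 3 h. Treated replicate 3 was again closest to DMSO without overlapping it, and DLX3 fell 4.43-fold (adjusted p = 0.0027).

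DLX1, LHX2, IRX3 and HOXB7 fell by 1.30, 1.37, 0.75 and 0.53 on the log2 scale (limma adjusted p = 0.0109, 0.00474, 0.0169 and 0.032). The groups of DLX1, LHX2 and IRX3 overlapped, in each case because the replicate 1 DMSO array was low. Leaving out any single array kept the calls on DLX1, DLX3, DLX5 and LHX2, while IRX3 ended without DMSO replicate 2 (0.0737) and HOXB7 without DMSO replicate 3 (0.106). With the 6 h arrays left out 8 of the 17 passed, and without the replicate 1 arrays 3 did.

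ID2 and ID3, which bind and silence basic helix-loop-helix factors and are targets of BMP signalling, both fell, as 2 of 18 ID, BMP and TGF-beta genes, with a median of -0.23. ID2 stood at 10.75, 10.50, 10.66 and 9.64 in DMSO and at 8.25, 8.38, 8.39 and 7.26 at 3 h. Replicate 4 was the lowest array of both groups by about a unit, and ID2 fell 4.98-fold (limma adjusted p = 0.00665). ID3 fell by 1.01 from 12.60 ± 0.34 to 11.59 ± 0.24 (SD, n = 4 each, adjusted p = 0.0295). TGIF1, a corepressor of TGF-beta signalling, rose by 0.98 (adjusted p = 0.00532). ID2 and TGIF1 passed with every single array left out, and ID3 did not without DMSO replicate 2 (0.112).

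HES5, a repressor switched on by Notch, stood at 8.38, 8.45, 8.16 and 7.92 in DMSO and at 5.27, 5.15, 6.55 and 6.17 at 3 h. The groups were more than a unit apart, and HES5 fell 5.43-fold (-2.44 ± 0.52 SE on the log2 scale, limma adjusted p = 0.0209). LFNG, a glycosyltransferase that modifies Notch, fell by 1.32 (adjusted p = 0.0202), and its treated replicate 3 at 9.82 lay within the DMSO range. They were 2 of 18 Notch genes, with none higher past the threshold and a median of -0.44. With the 6 h arrays left out 6 passed, HES1, the ligand JAG1 and the receptors NOTCH1 and NOTCH3 being lower as well (-0.63, -0.97, -0.82 and -0.67, adjusted p = 0.0462, 0.0256, 0.0168 and 0.0098). With the 8 arrays alone 3 passed, and without the replicate 1 arrays or with no array set block 0 did. FZD2, a Wnt receptor, fell by 1.31 (adjusted p = 0.00482). It was the one of 22 Wnt genes to pass (4.55%, against 3.08% of all genes). Without the 6 h arrays it was joined by LGR4, an R-spondin receptor (-1.19, adjusted p = 0.0172). HES5 and LFNG ended without DMSO replicate 1 (0.0784) and 3 h replicate 1 (0.0739), while FZD2 held throughout.

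VAV3, a guanine nucleotide exchange factor, stood at 8.27, 8.36, 8.52 and 8.03 in DMSO and at 5.88, 4.83, 6.24 and 4.73 at 3 h. The DMSO arrays lay close together and above every treated array, and 3 of the 4 treated arrays were under 6. The measured means of VAV3 differed 7.34-fold (limma adjusted p = 0.00441), a size that cannot be ranked against the bounds of SOX2 and DLX5. BCL11A, a zinc-finger repressor, stood at 7.52, 9.61, 9.95 and 9.14 in DMSO and at 5.86, 6.14, 7.18 and 5.74 at 3 h, lower in every treated array than in any DMSO array (7.11-fold, adjusted p = 0.0027). ARID5B, a DNA-binding cofactor, TBX1, a T-box factor, and EFNA1, a membrane ligand of Eph receptors, fell 4.2-fold, 3.37-fold and 2.95-fold (adjusted p = 0.00792, 0.00229 and 0.0106). RAB7B, INKA1, SALL2 and ZSCAN31 fell 3.02-fold, 2.92-fold, 2.9-fold and 2.74-fold (adjusted p = 0.00401, 0.00229, 0.00708 and 0.0219). Of the genes in this paragraph ZSCAN31 alone lost its call to a single left-out array, DMSO replicate 3 at worst (0.0761).

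The probe of MIR205, the gene of a microRNA known from squamous epithelium, stood at 8.15, 9.13, 9.13 and 8.46 in DMSO and at 6.94, 7.44, 6.82 and 7.40 at 3 h. The groups did not overlap, and the signal fell 2.96-fold (limma adjusted p = 0.0119, and 0.0552 without DMSO replicate 2). The array measured RNA from the gene and not the mature microRNA, whose RefSeq sequence is given to identify it, with the seed (bases 2 to 8) in capitals, at chr1:209432166-209432187 on the plus strand of GRCh38.p14.
hsa-miR-205-5p: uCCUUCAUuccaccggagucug

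**Figure D3:**
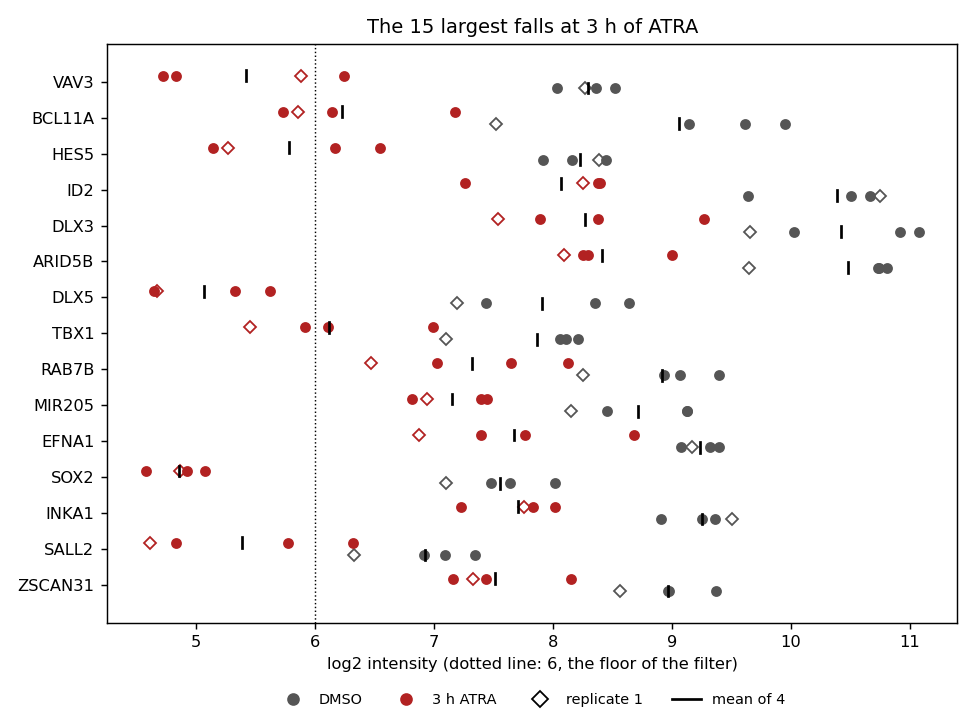
Log2 intensity (horizontal axis) of the 15 named genes with the largest falls, drawn as for the rises, with DMSO in grey, 3 h ATRA in red, replicate 1 as open diamonds and group means as bars. The red points lie to the left of the grey ones in every row, SOX2 and DLX5 lie wholly under the dotted line at 6 after treatment, and SALL2 shows the narrowest gap, between 6.32 and 6.33.

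Few growth genes passed, as did few of all genes (3.08%), so a count of 0 in lists of this size says little about them. At an unadjusted p under 0.05 stood 1860 of all 12467. Of 26 mitosis genes 0 passed in limma at 3 h (4 at an unadjusted p under 0.05) and 25 were lower on average, against 56.6% of all genes, with a median of -0.34. The smallest p belonged to AURKA, a mitotic kinase, at 11.87 ± 0.16 in DMSO and 11.34 ± 0.29 at 3 h (SD, n = 4 each, -0.53, adjusted p = 0.0779). Of 26 G1/S and replication genes 0 passed (3 at an unadjusted p under 0.05, median -0.07), the nearest being E2F2 (-0.49, adjusted p = 0.0884). GADD45A and GADD45B, stress genes linked to growth arrest, rose 2.54-fold and 2.55-fold (adjusted p = 0.00441 and 0.00795) as 2 of 13 CDK inhibitors and arrest genes, and both held with every single array left out. CASP9, the initiator caspase of the mitochondrial pathway, stood at 8.10, 7.77, 7.74 and 7.63 in DMSO and at 9.78, 10.17, 9.57 and 9.77 at 3 h. Its groups lay more than a unit apart, and it rose 4.04-fold (adjusted p = 0.0231, and 0.08 without 3 h replicate 2). With CFLAR and TNFRSF12A, the receptor of TWEAK (1.38, adjusted p = 0.0195, and 0.0802 without DMSO replicate 2), it made 3 of 26 apoptosis genes higher.

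The structural genes of squamous cells listed here did not pass. With 3.08% of all genes passing, counts of 0 in lists of this size say little about them. Of the 15 keratins of the list that were tested 0 passed (3 at an unadjusted p under 0.05, median 0.35), and the smallest p was that of KRT23 (1.16, limma adjusted p = 0.18). KRT34, a hair keratin outside the list and picked after its values were seen, stood at 6.56, 6.48, 6.5 and 6.17 in DMSO and at 7.37, 8.30, 8.80 and 7.51 at 3 h. Its groups did not overlap, and it rose 2.97-fold (adjusted p = 0.0239), a call that ended in 5 of the 16 fits that leave out 1 array, at worst without DMSO replicate 2 (0.0838). Of 31 cornified envelope and epidermal differentiation genes 0 passed (4 at an unadjusted p under 0.05, median 0.21), with the smallest p at KLK6, a kallikrein protease (1.22, adjusted p = 0.114), which passed in the 8-array fit (0.0225).

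Other housekeeping and stress lists showed single members, where 3.08% of all genes passed. BMAL1 and CRY1, opposing arms of the circadian clock, rose by 1.13 and 0.72 (limma adjusted p = 0.00467 and 0.0278) as 2 of 11 clock genes, the second ending without DMSO replicate 2 (0.095). The heat shock genes HSPA1A and HSPA1B fell by 0.84 and 0.97 (adjusted p = 0.0253 and 0.00441), as 2 of 14 tested. These near-identical copies share sequence, so their probes may not separate them, and HSPA1A ended without DMSO replicate 2 (0.0951). EGLN1, an oxygen sensor, rose by 0.90 and PFKFB4, a glycolytic regulator, fell by 1.07 (adjusted p = 0.0262 and 0.0236) among 22 hypoxia and glycolysis genes, both ending without DMSO replicate 1 (0.0974 and 0.0892). In that list 5 passed with the 6 h arrays left out, adding PFKFB3 (1.29), HK2 (0.83) and HILPDA (-0.48), and 0 passed without the replicate 1 arrays. PPP1R15A, which reverses the translation block of the stress response, rose by 0.74 (adjusted p = 0.047) and XPC, a DNA repair gene of the p53 list, fell by 0.73 (adjusted p = 0.044). Leaving out 1 array ended the call on PPP1R15A in 14 of 16 fits and that on XPC in 12 of 16, at worst without DMSO replicate 3 (0.151 and 0.144), and XPC also ended with the replicate numbers as a block (0.0642). Of 20 cholesterol and fatty acid genes, 30 ribosomal protein genes and 22 oxidative phosphorylation genes 0 passed (2, 0 and 0 at an unadjusted p under 0.05), with the smallest p at IDI1 (adjusted p = 0.156), RPL4 (0.403) and ATP5F1A (0.352), and medians of 0.07, 0.02 and -0.06.

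Further list counts moved by over 1.5 times with the 6 h arrays left out. The squamous progenitor and epithelial factors went from 3 to 5 (ELF3 and TFAP2A added), the interferon list from 2 to 4 (IFIT2 and IRF1 added) and the junction and mucin list from 1 to 2 (CLDN7 added). The lists with 0 that had 1 in that fit were the prostaglandin genes (PTGES), mitosis genes (BUB1B), G1/S genes (CCNE1), cornified envelope genes (KLK6) and endothelial markers (CDH5). The p53 list kept its 1 with the 6 h arrays left out and had 0 with the 8 arrays alone. Without the replicate 1 arrays 0 members passed in the retinoid metabolism, NF-kappaB, apoptosis, interferon, heat shock, p53 and unfolded protein response lists.

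Most calls that a left-out array ended were ended by more than 1 array in turn, and only those on CYP26B1, MAFF and MIR205 by exactly 1. Of the 16 fits that leave out 1 array, 11 ended the calls on CFLAR, GBP1 and RELB, 10 that on TIMP3 and 8 those on ERBB3, OAS1 and PPARD. The calls on CRY1, HOXB7, ID3, NRIP1 and TRIM31 ended in 7. Those on CASP9, EGLN1, HSPA1A, IER3, IL36RN, LFNG and SPRED1 ended in 6. Those on ALDH1A3, DUSP5, DUSP16, HES5, IRX3, MYC, RXRA and ZSCAN31 ended in 5. Low signal limits the size of other changes, since part of a group lay under 6. This held for 3 of 4 DMSO arrays at CCN2, IL36RN and LIPG and 2 at CCL20, FOSL1 and GCNT3, and for 3 of 4 treated arrays at SALL2 and 2 at BCL11A, HES5, PFKFB4 and TBX1.

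**Figure D4:**
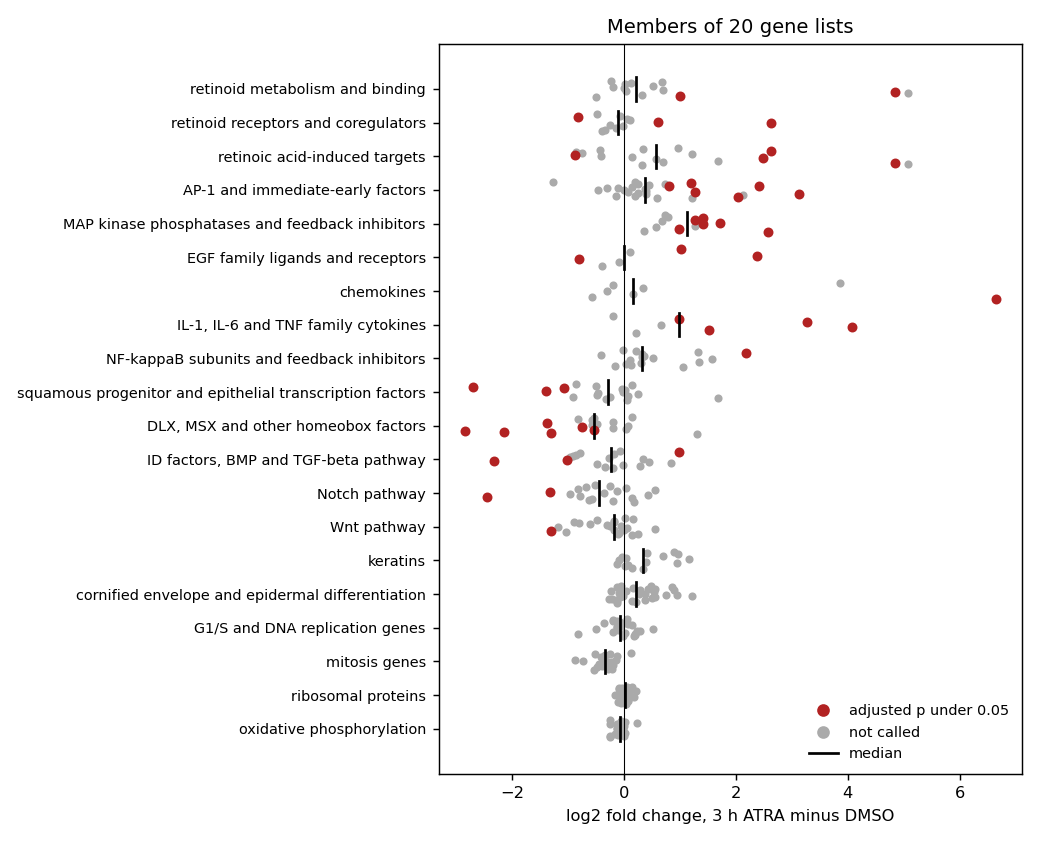
Log2 fold change of 3 h ATRA over DMSO (horizontal axis) for each tested member of 20 gene lists (rows), red where the adjusted p was under 0.05, with the list's median as a bar. The MAP kinase inhibitors lie wholly to the right of 0 with a median of 1.13, the 6 red points of the homeobox list lie to the left, and the ribosomal proteins sit close to 0.

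The same genes in the other arrays show how 3 h stands in the series, given side by side because all comparisons share the DMSO arrays. HBEGF stood higher over DMSO at 1 h than at 3 h (4.18 and 2.38 on the log2 scale), as did CCN2 (5.18 and 2.04) and DUSP1 (4.30 and 2.58). CCL20 stood 5.41 above DMSO at 1 h and 6.65 at 3 h, and SLC20A1 2.30 and 2.57. GCNT3, TRIM31 and OAS1 stood at 0.86, 1.62 and -0.16 at 1 h against 3.53, 4.34 and 2.27 at 3 h. Among the falls SOX2 stood at -1.64 and -2.70, VAV3 at -0.30 and -2.87, and ARID5B at 0.12 and -2.07. TRIM31 in DMSO and SOX2 at 3 h were under 6 in all arrays, so their differences are between measured values and not exact sizes. No difference between the time points was tested, and the 6 h means are not set beside these because the 6 h arrays were divided.

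**Figure D5:**
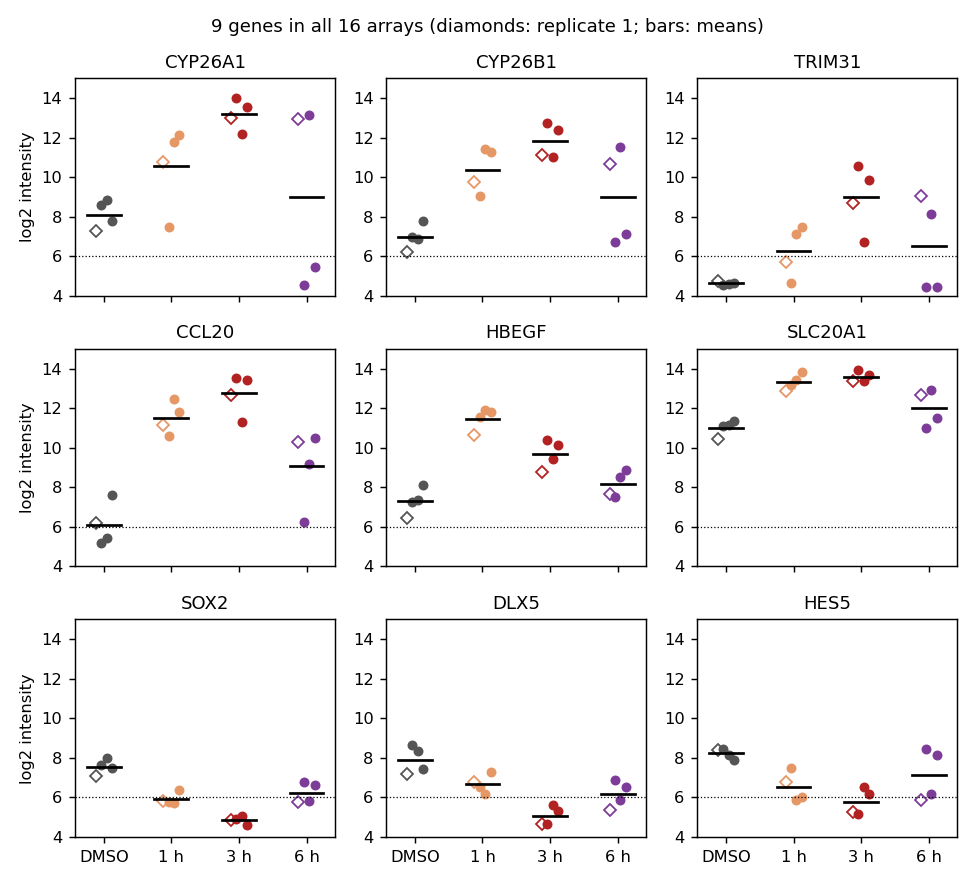
Log2 intensity (vertical axis) of 9 genes in all 16 arrays by group (DMSO, then 1 h, 3 h and 6 h of ATRA), with replicate 1 as open diamonds, means as bars and a dotted line at 6. CYP26A1 shows the division of the 6 h arrays, with 12.95 and 13.13 against 4.53 and 5.45, while HBEGF is highest at 1 h and SOX2 is lowest at 3 h.

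Some arrays lay nearer to the other group than others did. In replicates 2 to 4, treated replicate 3 was the array nearest to DMSO in 162 of the 234 genes that rose (69.2%) and in 89 of the 150 that fell (59.3%). DMSO replicate 4 was the array nearest to the treated group in 161 (68.8%) and 85 (56.7%). Their part in the results was not tested beyond leaving each out: without 3 h replicate 3 392 genes passed, 311 of them shared, and without DMSO replicate 4 310 passed, 282 of them shared.

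Markers of other cell types were read in the same arrays. Of 11 fibroblast markers with a probe 8 were under 6 in all 16 arrays, as were 10 of 14 leukocyte markers, PTPRC, CD3E and MS4A1 included, and CD68 was the one leukocyte marker above 6 throughout. The summed linear intensity of the fibroblast markers ranged from 338 to 678 in DMSO and from 360 to 723 at 3 h, and that of the leukocyte markers from 540 to 655 and from 568 to 747. Of 10 endothelial markers 7 were under 6 in all arrays, and their sum ranged from 281 to 381 in DMSO and from 406 to 721 at 3 h, without overlap. CDH5 (VE-cadherin) had the largest difference among them, at 4.37, 4.51, 4.34 and 4.54 in DMSO and 6.90, 8.29, 4.90 and 8.04 at 3 h (limma adjusted p = 0.0818). All 4 DMSO arrays of CDH5 and its 3 h replicate 3 were under 6, so the size of the difference is not measured, and its 3 h mean lay 2.05-fold above 6. CDH5 passed with the 6 h arrays left out (adjusted p = 0.0332), the one endothelial marker to do so. The squamous markers summed to between 92889 and 112177 in DMSO and between 92753 and 124096 at 3 h. The part of these markers in the results was not tested.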

How the data were processed

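Biotin-labelled cRNA of ME180 cells was hybridised to 16 arrays, 4 per group. The authors deposited quantile-normalized log2 intensities, 1 per probe and array, and limma is the tool named in the submitters' processing notes. No source used here gives the background correction, the offset or the log base. The values were read as base 2, since their maximum of 14.73 would then be an intensity of 27246. The direction (brighter is higher) was taken from the values, and genes were not centred. The medians of the 16 arrays lay near 4.74, and 13875 to 13881 probes per array reached 6. The non-normalized deposited table gave only the row order. No label matched its 32 value and detection columns, which stayed out of every step.

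In that order the replicate 1 values stood 1 row too low from row 10570. Their mean correlated with that of the other arrays across probes at r = 0.979 before that row, and after it at 0.325 as deposited and 0.979 once moved. Searched array by array, the break fell at rows 10570 to 10573. Genes are named from the platform annotation (30113 probes with 1 symbol, 8 with several, 17109 not listed), and 0 symbols changed through RefSeq gene IDs.

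A gene or unnamed probe was tested if at least 4 of the 16 arrays reached 6, with the probe of the highest mean per gene (12467 from 15271 probes). limma 3.58.1 in R 4.3.3 fitted 4 groups and the array set (replicate 1 or not), two-sided, with Benjamini-Hochberg adjustment over all 12467 and a threshold of 0.05. The procedure was tested on simulated data. Where a group was under 6 in all 4 arrays, the fold is a bound against 6. No scanner background flags were used here, and the number of arrays limits the precision.

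Same-numbered DMSO and 3 h arrays deviated from their group means together, with correlations across genes of 0.851, 0.434, 0.273 and 0.551 for replicates 1 to 4. No label says that the numbers pair the arrays. The fit with the 4 numbers as a block stands as an alternative to the fit reported, which has the array set alone. Once the array set was removed the correlations were -0.351, 0.222, -0.0858 and 0.370, of both signs, so they do not settle whether the numbers pair the arrays.

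The genes named are the 15 largest rises and the 15 largest falls that passed with groups that did not overlap, each list member that passed, CYP26A1, CYP26B1, DHRS3, RARA, RARB, RARG, RXRA and CRABP2, and the smallest p in a list where no member passed. The comparison, members and 38 gene lists were chosen with earlier results of these data known. Promoter and microRNA sequences are from RefSeq (GRCh38.p14). Alternatives are listed at the end.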

Additional observations from a re-analysis of the deposited data

Results flagged for a closer look

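Among 192 groups of 4 arrays (the DMSO and 3 h groups of each named gene), 13 held an array whose gap to the others was above the critical value of Dixon's test. Chance flags about 1 in 20 groups, a rate that does not allow for the array set difference, which these values still carry. In 7 of the 13 the array was DMSO replicate 1. It was low for ARID5B at 9.64 (the others 10.73 to 10.81), LFNG at 8.69 (9.81 to 10.04), MYC at 10.64 (11.51 to 11.64), PPARD at 6.66 (7.14 to 7.24) and TBX1 at 7.10 (8.06 to 8.21). It was high for OAS1 at 7.99 (6.98 to 7.13) and RPL4 at 13.45 (13.32 to 13.33).

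The 3 h replicate 3 array was low for GCNT3 at 9.47 (10.75 to 10.91) and IL36RN at 6.19 (6.58 to 6.63). The 3 h replicate 1 array was low for HOXB7 at 10.19 (10.48 to 10.51) and LIPG at 7.88 (9.29 to 9.56). The remaining arrays were 3 h replicate 4 for ID2 at 7.26 (8.25 to 8.39) and DMSO replicate 4 for RELB at 6.23 (4.95 to 4.98).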

How the results depend on the processing

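The main count was 384 genes (234 higher, 150 lower). It fell to 65 (54 and 11) with no array set block, 94 (65 and 29) without the replicate 1 arrays, 213 (125 and 88) with no filter on low values and 140 (83 and 57) with the rows as deposited. It rose to 1009 (530 and 479) with array weights, and the falls rose to 232 with the 6 h arrays left out. The cause of these changes was not tested, beyond the larger or smaller number of genes or arrays that the setting itself brings. With the replicate block in place of the array set the count was 341 (208 and 133), 323 of them shared. Of the 80 named genes that passed, 72 also passed with the replicate block, and the 8 that did not are CFLAR, GBP1, IER3, OAS1, PPARD, TIMP3, TRIM31 and XPC. An intensity trend, a filter at 7, the mean of probes and centred medians gave between 363 and 383. Leaving out each array in turn gave 116 to 498 (71 to 292 higher, 45 to 206 lower). Of the named calls 39 held in all 16 of these fits, 71 with the 8 arrays alone, 35 without replicate 1 and 28 with no array set block. In no alternative did a named gene that passed change its direction, though the alternatives use the arrays on which the genes were chosen. Further probes of 31 named genes had the same direction in 34 of 35 cases, CD68, which did not pass, being the exception. In a limma fit on all probes, some further probes of named genes that passed did not pass. They were ERBB3 (-0.28, adjusted p = 0.648), MAFF (1.11, 0.178), EFNA1 (-0.91, 0.104), DLX1 (-0.72, 0.104), PHLDA1 (1.16, 0.0892), SNAI2 (-1.11, 0.0695) and MYC (0.91, 0.059). The rest of them passed, with smaller sizes than at the probes reported for CCN2 (1.10) and 1 BCL11A probe (-0.71). The single arrays that moved the count most, DMSO replicate 2 and 3 h replicate 2, and the absence of a time-matched vehicle limit how firmly small changes can be read.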

Other observations

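The genes given values below were picked from the 384 after their values were seen, so they carry no test of a group. Several handle lipids, although 0 of 20 genes of the cholesterol and fatty acid list passed. LPIN1, which makes diacylglycerol, stood at 9.35 ± 0.39 in DMSO and 11.72 ± 0.50 at 3 h (SD, n = 4 each, limma adjusted p = 0.0194). PLIN2, the coat protein of lipid droplets, went from 6.47 ± 0.12 to 8.60 ± 0.62 (adjusted p = 0.0176). GPAT3, an acyltransferase of triglyceride synthesis, went from 6.59 ± 0.25 to 8.60 ± 0.85 (adjusted p = 0.0176), and NCEH1, a cholesteryl ester hydrolase, from 7.74 ± 0.36 to 9.52 ± 0.18 (adjusted p = 0.00665). Without the replicate 1 arrays the calls on LPIN1, PLIN2 and GPAT3 ended (limma adjusted p = 0.0766, 0.0991 and 0.0648), while that on NCEH1 held (0.0357). With no array set block LPIN1 ended too (0.0508).

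Of 7 Eph receptors tested 2 passed, where 3.08% of all genes passed, with a median of 0.02 over the 7. EPHA2 rose by 1.63 on the log2 scale (limma adjusted p = 0.0106). EPHA4 passed too (adjusted p = 0.0253), but all 4 of its DMSO arrays and its 3 h replicate 3 (5.71) were under 6. Its 3 h mean lay 1.05-fold above 6. Of 4 ephrins tested, the ligands of these receptors, EFNA1 and EFNA4 fell by 1.56 and 1.07 (adjusted p = 0.0106 and 0.00482), and EFNB1 and EFNB2 did not pass (-0.24 and 0.27, adjusted p = 0.665 and 0.632). Without the replicate 1 arrays the calls on EPHA2, EPHA4, EFNA1 and EFNA4 ended (limma adjusted p = 0.0592, 0.159, 0.115 and 0.0608).

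Several transcription factors outside the lists also passed. SOX9 rose by 1.56 (limma adjusted p = 0.0225), BCL6 fell by 1.57 (adjusted p = 0.0138), BCL11B fell by 1.74 (adjusted p = 0.0271) and CEBPA fell by 1.12 (adjusted p = 0.00788). The groups of each of them overlapped. Without the replicate 1 arrays their calls ended (adjusted p = 0.11, 0.0595, 0.0661 and 0.0936), as they did with no array set block (0.421, 0.445, 0.518 and 0.534). FBXW7, a substrate receptor of a ubiquitin ligase for Notch and MYC, fell by 1.02 (adjusted p = 0.0117, and 0.0902 without the replicate 1 arrays). The probe of MIR614, a microRNA gene on chromosome 12, stood at 5.02 ± 0.20 in DMSO and 7.70 ± 0.35 at 3 h (SD, n = 4 each, adjusted p = 0.00137). All 4 of its DMSO arrays were under 6, so the size is a bound, at least 3.24-fold against 6.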
